A study of Mus musculus with 18 samples.

Results

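Homeobox genes that lay out the front of the embryonic brain, namely Otx1, Otx2, Six3, Emx2, Lhx2, En1, En2 and Gbx2, were followed through neural differentiation of mouse embryonic stem (ES) cells and under ligands of nuclear receptors. The members were taken by symbol, 8 of the 23420 gene rows in each file of read counts, and all 8 passed the filter on low counts that left 17166 genes for testing. The study measured RNA from wild type E14 ES cells and from neural cultures made from them, in 18 libraries, 2 in each of 9 groups. Undifferentiated ES cells (day 0) were untreated by ligand (control), or received GW3965, LG268 or both for 24 h. GW3965 is a synthetic agonist of the liver X receptors (LXR) and LG268 a synthetic agonist of the retinoid X receptors (RXR), the partner with which LXR binds DNA. Ligands were given at 1 µM and the vehicle was dimethylsulfoxide, per the treatment protocol. For differentiation, cells were aggregated into embryoid bodies without leukemia inhibitory factor, exposed to all-trans retinoic acid at 5 µM over 4 days, and plated in N2 medium on laminin and poly-L-ornithine. Control cultures were taken at day 8, day 16 and day 17, and cultures with GW3965 at day 16 and day 17. All 5 differentiated groups had therefore passed through retinoic acid, and all 9 groups came from 1 ES cell line. The labels do not give how long the day 16 and day 17 cultures had GW3965. Judged by file names alone, GW3965 was present from day 8 in the day 16 cultures and for 24 h in the day 17 cultures, which nothing else in the sources used here states. The file names of the ES group with both ligands contain the word for control beside both ligands, and the group was taken from the sample titles. The labels also do not say whether the 2 replicates of a group were separate cultures. The p-values below thus measure only the spread between these libraries, which may be technical.

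The neural plate is divided along its length by transcription factors with sharp borders. Otx2, with its close relative Otx1, marks the forebrain and midbrain, and Otx2 is also expressed earlier, in the epiblast and in ES cells leaving naive pluripotency. Gbx2 marks the anterior hindbrain and meets Otx2 at the midbrain-hindbrain border, where the organizer signals Wnt1 and Fgf8 are produced and En1 and En2 are switched on around them. Six3 marks the most anterior forebrain and the eye field, Emx2 the dorsal forebrain, and Lhx2, a LIM homeodomain factor, the cortical primordium and the optic vesicle. Retinoic acid is known to favour posterior over anterior identity in such cultures. En1 is also used by a class of spinal interneurons, and Gbx2 has a further known role in ES cell self-renewal.

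All of the genes code for proteins in GENCODE M21 (GRCm38, the mm10 assembly). Otx2 lies on the minus strand at chr14:48657677-48673819 and Otx1 on the minus strand at chr11:21994764-22002897. Six3 lies at chr17:85613608-85629302, Emx2 at chr19:59458372-59465357 and Lhx2 at chr2:38339281-38369733, all on the plus strand. En1 lies at chr1:120602418-120607992 and En2 at chr5:28165694-28172166, both on the plus strand, and Gbx2 on the minus strand at chr1:89927956-89931179. Otx2, Six3 and Emx2 overlap genes on the other strand (Otx2os1, Six3os1 and Emx2os among them), as do Lhx2, En2 and Gbx2, whereas none overlaps Otx1 or En1. Whether reads were counted by strand is not given in the sources used here, so reads of a gene and of its antisense partner cannot be told apart.

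Promoter sequences were matched by symbol in RefSeq tables on GRCm38.p6, where 6 of the 8 had an entry, and windows of 300 bases around each annotated start were searched on both strands. Below are the 250 bases upstream of one annotated start of Otx2, the member that moved most, and of Lhx2, which moved with it in the cultures with GW3965 at day 17. Neither stretch overlaps an annotated exon. Capitals mark TAATTA, the core recognised by many homeodomain proteins.
Otx2, chr14:48667645-48667894, minus strand: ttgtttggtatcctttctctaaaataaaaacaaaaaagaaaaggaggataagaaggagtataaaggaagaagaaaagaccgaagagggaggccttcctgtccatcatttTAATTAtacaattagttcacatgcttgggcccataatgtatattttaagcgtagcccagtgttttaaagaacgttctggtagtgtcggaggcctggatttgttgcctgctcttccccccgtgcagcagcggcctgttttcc
Lhx2, chr2:38339031-38339280, plus strand: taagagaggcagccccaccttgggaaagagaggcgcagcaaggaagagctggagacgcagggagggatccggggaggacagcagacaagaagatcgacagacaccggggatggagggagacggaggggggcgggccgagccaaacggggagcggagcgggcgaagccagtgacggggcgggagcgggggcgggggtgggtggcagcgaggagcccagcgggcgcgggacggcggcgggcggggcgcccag
The Otx2 stretch was 42% G and C and held 1 TAATTA, whereas the Lhx2 stretch was 72.8% G and C and held none. TAATTA was present in 5.29% of 32851 promoter windows of 300 bases, which are longer than the 250 bases printed. At another Otx2 start the window held 3 copies of TAATTA and 1 of TAATCC, the site preferred by Otx-type homeodomains, which 7.06% of windows held. AGGTCA, the single site of nuclear receptors, was present in 16.3% of windows and in none of the members' windows. Its direct repeats spaced by 4 or 5 bases (DR4 and DR5, each of which contains the single site) were in 0.0152% and 0.00913% of windows and in none of the members'. These matches describe the letters in the windows and were not tested for binding.

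Counts given to genes ran from 16.75 to 44.79 M per library (median 23.52 M). Levels are given as CPM, counts scaled to library size by TMM, where 1 count was worth 0.0245 to 0.0583 CPM. The ES libraries held the pluripotency factor Pou5f1 at 688 to 748 CPM, and 6 neuron markers together rose from 376 to 476 CPM in the ES libraries to 1170 to 3130 CPM in the differentiated ones. The 2 libraries of 1 group differed most for GW3965 at day 16 (chi-square per gene 42.06, against 2.858 to 10.74 in the other groups). The 4 day 17 libraries alone listed reads aligned more than once (31.84 to 33.53% of reads), so day 16 and day 17 differ in more than time. Differences are log2 fold changes ± SE from 1 quasi-likelihood fit of edgeR to all 18 libraries, and a gene is said to rise or fall at a Benjamini-Hochberg adjusted p below 0.05 over the 17166 genes. Intervals on counts cover counting error only.

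**Figure D1:**
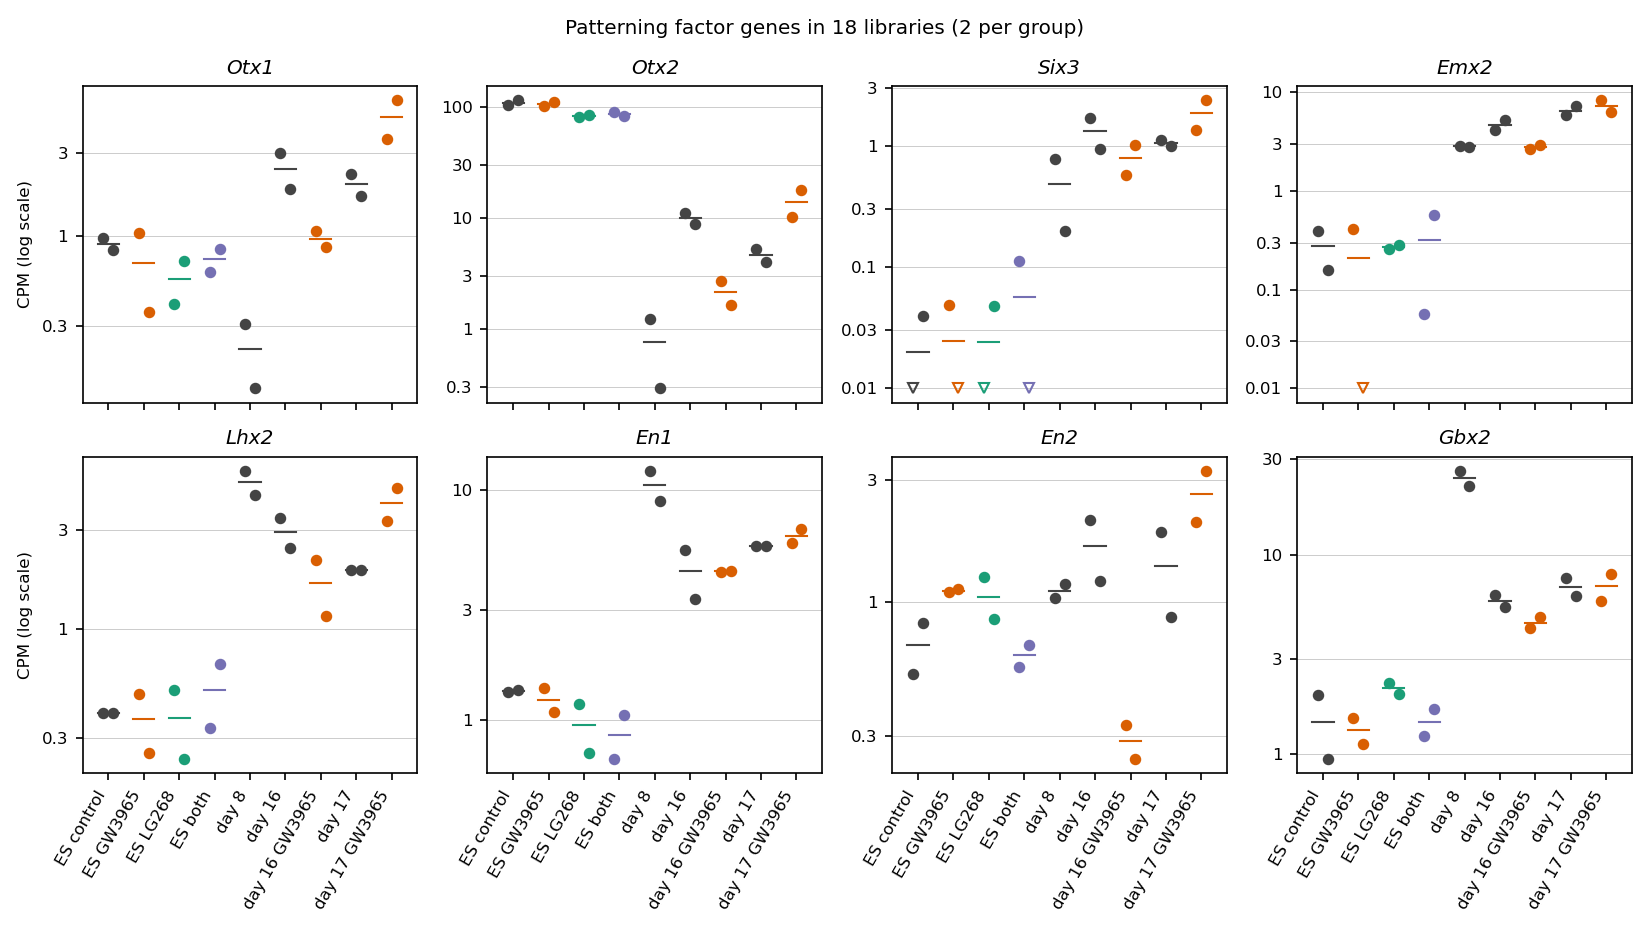
Level of each patterning factor gene (CPM, log scale, a separate axis per gene) in the 18 libraries by group. Points are libraries, lines the means of 2, and open triangles libraries with 0 counts; Otx2 was highest in the 8 ES libraries (80.6 to 114 CPM), En1 and Gbx2 were highest at day 8, and Six3 had 2 counts or fewer in every ES library.

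Differentiation changed 7 of the 8 genes by day 8, in opposite directions. Otx1 and Otx2 fell, Six3, Emx2, Lhx2, En1 and Gbx2 rose, and En2 did not pass the test. In this comparison 78.7% of all genes tested passed, 39.7% higher and 39.1% lower, so a share of 7 in 8 is near the background. The median difference of the members was 3.17 against 0.00 for all genes on the log2 scale. In cultures of mixed cells, fewer cells of a type and less RNA per cell cannot be told apart.

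Otx2 made the largest move. Its level was 104 and 114 CPM in the ES control libraries and 1.24 and 0.294 CPM at day 8, from 32 and 9 counts. The groups were far apart, but the day 8 libraries themselves differed 4.21-fold. Otx2 fell by 7.22 ± 0.279 on the log2 scale, a 149-fold difference (adjusted p = 3.67e-15, edgeR). By day 16 it was back at 11.1 and 8.87 CPM, which was 3.75 ± 0.349 above day 8 (adjusted p = 1.74e-08). That return stayed below the start, since day 16 was still 3.47 ± 0.19 under ES control (11.1-fold, adjusted p = 9.07e-13). At day 17 the control libraries held 5.21 and 4.02 CPM, lower than at day 16 by a log2 difference of -1.07 ± 0.26 (adjusted p = 0.00147), and it was 1 of 8 members to pass in that step, where 56.2% of all genes passed. Without the first day 16 library En1 passed as well.

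Otx1 also fell and then rose. It was at 0.967 and 0.83 CPM in ES control, at 0.309 and 0.131 CPM at day 8 from 8 and 4 counts, and at 3 and 1.87 CPM at day 16. All libraries of a stage were apart from those of the next. The fall to day 8 was -2.04 ± 0.595 (adjusted p = 0.00402) and the rise to day 16 was 3.46 ± 0.52 (adjusted p = 9.35e-06). Without the second day 8 library the fall did not pass (adjusted p = 0.0621). Unlike Otx2, Otx1 ended above its start, by 1.42 ± 0.422 (adjusted p = 0.00452), a call that was lost without the first day 16 library (adjusted p = 0.064).

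The 3 forebrain factors appeared with differentiation. Six3 had 0 and 1 counts in ES control, 20 and 6 at day 8 (0.774 and 0.196 CPM), and 41 and 34 at day 16 (1.69 and 0.936 CPM). It was thus near the limit of detection in ES cells and low afterwards. The day 8 to ES control ratio of pooled counts was 22.1 (95% interval 3.64 to 907), and that of day 16 was 59.5 (10.4 to 2380). The rise to day 8 had an adjusted p of 0.00371, but of 0.0761 without the first day 8 library. From day 8 to day 16 Six3 rose by 1.44 ± 0.585 (adjusted p = 0.0389, edgeR). This call rested on the method, since it did not pass with the DESeq2 Wald test (adjusted p = 0.064). It also rested on single libraries. The rise was 0.70 without the second day 8 library and 0.96 without the first day 16 library, and neither passed.

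Emx2 had 0.396 and 0.158 CPM in ES control and 2.86 and 2.81 CPM at day 8, libraries that did not overlap. The rise was 3.36 ± 0.535 (10.3-fold, adjusted p = 9.26e-06). Its further increase to 4.2 and 5.2 CPM at day 16 did not pass (0.74 ± 0.345, adjusted p = 0.0712), while 3 of the other analyses and a fit without filter did call it, with adjusted p from 0.00335 to 0.0458. Day 17 held 5.85 and 7.23 CPM, both above the day 16 libraries, but the difference did not pass (0.46 ± 0.332, adjusted p = 0.251).

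Lhx2 peaked at day 8. It stood at 0.396 and 0.395 CPM in ES control and at 5.73 and 4.41 CPM at day 8, a rise of 3.66 ± 0.415 (12.6-fold, adjusted p = 8.97e-08). Day 16 libraries held 3.42 and 2.45 CPM, below both day 8 libraries. That fall was -0.80 ± 0.31 (adjusted p = 0.0312, edgeR), and it did not pass with the DESeq2 Wald test (adjusted p = 0.0823). Nor did it pass without the first day 8 library (log2 difference -0.62) or the second day 16 library (-0.59). The comparison of day 16 with day 8 called 61.6% of all genes, 29.4% higher and 32.2% lower, against 3 of 8 members in each direction.

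The genes of the midbrain-hindbrain border split. Gbx2 was at 1.98 and 0.948 CPM in ES control and at 26.2 and 22 CPM at day 8, from 677 and 672 counts, and it rose by 4.05 ± 0.251 (16.6-fold, adjusted p = 7.08e-12). It fell again to 6.26 and 5.45 CPM at day 16, a log2 difference of -2.04 ± 0.206 (adjusted p = 5.32e-08). The day 8 libraries stood above every other library of the series. En1, the first engrailed gene, had the same shape. Its level went from 1.32 and 1.34 CPM to 12.1 and 8.98 CPM at day 8 (2.98 ± 0.27, adjusted p = 3.07e-09) and to 5.51 and 3.36 CPM at day 16 (-1.27 ± 0.228, adjusted p = 7.74e-05).

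En2, its paralog, did not pass in either step. The ES control libraries had 0.527 and 0.83 CPM, day 8 had 1.04 and 1.18 CPM, and day 16 had 2.1 and 1.21 CPM. The groups did not overlap in either step, with 95% intervals of -0.23 to 1.63 for day 8 against ES control and of -0.28 to 1.36 for day 16 against day 8. Over the whole course En2 was 1.24 ± 0.428 higher at day 16 (adjusted p = 0.012), which did not hold without the first ES control library (0.102) or the first day 16 library (0.151). Over that whole course, which shares its libraries with the steps, 7 members were higher and Otx2 lower, where 81.1% of all genes passed.

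**Figure D2:**
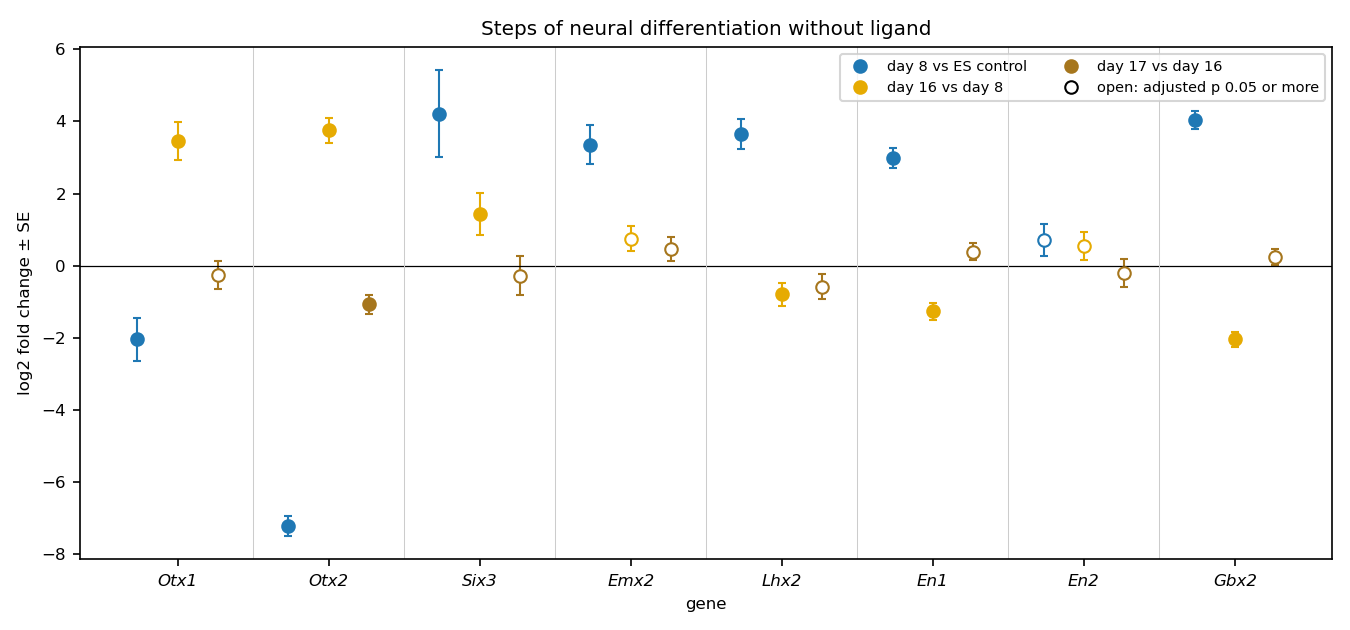
Log2 fold change ± SE of each gene in the 3 steps of differentiation without ligand (day 8 against ES control, day 16 against day 8, day 17 against day 16; 2 libraries per group). Filled points passed an adjusted p of 0.05 and open points did not; Otx1 and Otx2 go down and then up, whereas Lhx2, En1 and Gbx2 go up and then down.

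Ranked by mean CPM over the 9 groups, Otx2 had the 4 ES groups first, with the groups without LG268 above those with it, then day 17 with GW3965 (14 CPM) and day 16 control (9.97 CPM), which overlapped. Day 17 control (4.62 CPM), day 16 with GW3965 (2.17 CPM) and day 8 (0.766 CPM) followed, each apart from the next. Otx1 (4.84 CPM), Six3 (1.85 CPM), Emx2 (7.31 CPM) and En2 (2.65 CPM) were highest in day 17 with GW3965, a group that stood apart from the next in rank for Otx1 and overlapped it for Six3, Emx2 and En2. Lhx2 (5.07 CPM), En1 (10.5 CPM) and Gbx2 (24.1 CPM) were highest at day 8, apart from the next group for En1 and Gbx2 and overlapping it for Lhx2. At the foot of the order were day 16 with GW3965 for En2 (0.289 CPM), day 8 for Otx1 and Otx2, and an ES group for the others.

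Per kilobase of exon the order of the genes turned over. In ES control Otx2 was first at 25.9 ± 1.65 CPM per kb (SD, n = 2), far above Gbx2 at 0.672 ± 0.334. At day 8 Gbx2 led at 11.1 ± 1.38 CPM per kb, followed by En1 at 4.01 ± 0.831 and Lhx2 at 1.15 ± 0.212, while Otx2 was at 0.181 ± 0.158. At day 16 Gbx2 at 2.69 ± 0.261 and Otx2 at 2.36 ± 0.369 CPM per kb lay within the spread of their libraries. Six3 was last there at 0.241 ± 0.0975.

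Other genes of regional identity gave the setting of these moves. Over all genes, 78.7% passed at day 8 and 61.6% from day 8 to day 16. Of 15 tested telencephalon and rostral forebrain factors 11 rose by day 8 and none fell, and of 10 diencephalon and alar forebrain factors 9 rose and 1 fell. Named by size were Nr2f1 (8.70 ± 0.155, from 0.334 to 140 CPM), an orphan nuclear receptor of the cortex and the hindbrain, and Pax6 (5.24 ± 0.2, from 1.72 to 65.4 CPM), a factor of forebrain and spinal progenitors. Of 16 hindbrain and spinal cord genes, mostly Hox, 13 rose and 1 fell, and their summed level went from 11.4 and 8.5 CPM to 719 and 721 CPM. Among them Hoxb5 had no count in ES control and stood at 113 CPM at day 8, and Hoxb8 was at 225 CPM. Of 12 midbrain-hindbrain organizer genes 6 rose and 5 fell. Pax2, an early factor of the border, went from 0 to 61.5 CPM, whereas Fgf8, the organizer's signal, fell from 31.2 to 0.0877 CPM (-8.38 ± 0.364). From day 8 to day 16 the hindbrain and spinal cord list had 10 members lower and 1 higher, and its summed level fell to 284 and 313 CPM. In the same step 4 forebrain factors of the first list rose and 3 fell, among them Nr2f1 (-1.11 ± 0.0776).

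Markers of other cell types moved in the same steps, where 78.7% and 61.6% of all genes passed. The 8 pluripotency markers summed to 2160 and 2150 CPM in ES control and to 107 and 101 CPM at day 8, with 7 lower and none higher. Primed epiblast markers, of which Fgf5 and Dnmt3b are the best known, fell in 5 of 5 cases to day 8, as Otx2 did, and from day 8 to day 16, when Otx2 rose, 3 of them rose (Fgf5, 1.52 to 5.44 CPM, Dnmt3b, 15.9 to 41.9 CPM, and Lefty1, 0.885 to 2.49 CPM), Pou3f1 fell (9 to 3.06 CPM) and Nodal did not pass. Mesenchyme markers (collagens, Dcn and Lum) rose in 5 of 5 cases in both steps, to a summed 9600 and 11000 CPM at day 16, and 5 of 5 astrocyte markers rose to day 16. The part of these cells in the members' changes was not tested.

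Lists of cells that use these factors later are given by their counts, to be read against the shares of all genes that passed (78.7% at day 8, 61.6% from day 8 to day 16, and with GW3965 31.7% at day 16 and 35.2% at day 17). Of 6 markers of spinal V1 interneurons and ventral progenitors, a class that uses En1, 5 rose to day 8 (18.6 and 15.3 CPM to 110 and 109 CPM summed) and 3 fell to day 16, and with GW3965 1 fell at day 16, and 1 rose and 1 fell at day 17. Of 5 tested markers of midbrain dopaminergic neurons, which depend on Otx2 and the engrailed genes, 4 rose to day 8 and 1 fell, and none passed with GW3965 at day 16 (36.9 and 39.2 CPM against 33.5 and 35.3 CPM summed), while 1 rose and 1 fell at day 17. Of 5 choroid plexus markers 3 rose to day 8, 1 rose and 1 fell with GW3965 at day 16, and 1 rose at day 17. Of 4 tested retina and pigment epithelium markers 1 rose and 3 fell to day 8, and none passed with GW3965 on either day. Of 8 anterior endoderm and mesendoderm markers 5 rose and 3 fell to day 8, and 2 rose and 3 fell with GW3965 at day 16 (179 and 176 CPM against 268 and 255 CPM summed), and 1 rose at day 17.

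Ligands in ES cells left all 8 members short of the threshold. In 6 pairs of ES groups at the same dose and time, and in the interaction of the ligands, 0 of 8 members passed in each case with edgeR. Over all genes, 0.32% passed for GW3965 against control, 0.851% for LG268, 11.3% for both ligands, 0.6% for LG268 against GW3965, 4.21% for both against LG268, 10.7% for both against GW3965 and 0.134% for the interaction. At an unadjusted p below 0.05 there were 0, 1, 1, 2, 0, 0 and 1 members in those comparisons. Of all 17166 genes, 970, 1602, 4245, 1424, 3337, 4352 and 2352 were below that same threshold. Six3 had 2 counts or fewer in each ES library, so no fold is given for it.

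Otx2 came closest. It held 104 and 114 CPM in control, 101 and 111 CPM with GW3965, 80.6 and 85 CPM with LG268, and 89.6 and 82.6 CPM with both. The 4 libraries with LG268 lay below the 4 without it. The difference for LG268 alone was -0.40 ± 0.16 (95% interval -0.74 to -0.07, unadjusted p = 0.0206, adjusted p = 0.389), and that for both ligands was -0.35 ± 0.161 (-0.68 to -0.01, adjusted p = 0.188). GW3965 alone gave -0.05 ± 0.158 (-0.38 to 0.28). LG268 did pass when the fit held its 2 libraries and the 2 controls alone (8.01e-06) and without a filter (0.00191), and both ligands passed with limma-voom (0.0425) and without a filter (0.00245), so the call changed with the libraries, the genes and the method of the fit. The epiblast marker Fgf5 was at 56.9 and 54.9 CPM in control, 25.7 and 26.4 CPM with LG268, and 19.1 and 16.3 CPM with both. It was the 1 of 5 primed epiblast markers to fall with LG268, while Lefty1 rose (80.1 to 143 CPM), and with both ligands Fgf5 and Dnmt3b fell and Lefty1 rose. Of 8 anterior endoderm and mesendoderm markers 2 fell with LG268, and their summed level was 44.2 and 42.4 CPM in control and 21.5 and 18.8 CPM with LG268. Their part in the Otx2 values was not tested.

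Gbx2, the counterpart of Otx2 at the border, was at 1.98 and 0.948 CPM in control and at 2.28 and 2 CPM with LG268 (0.57 ± 0.305, interval -0.07 to 1.21, adjusted p = 0.614). En2 was at 1.1 and 1.13 CPM with GW3965, at 1.25 and 0.859 CPM with LG268, and at 0.561 and 0.682 CPM with both, where the interaction was -1.47 ± 0.658 (unadjusted p = 0.0375, adjusted p = 0.33). The intervals of Otx1, Emx2, Lhx2 and En1 all included 0, and those of Emx2 under LG268 ran from -1.72 to 1.71, so that changes of several fold would not have been detectable at its 1 to 17 counts, with 0 in one library.

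**Figure D3:**
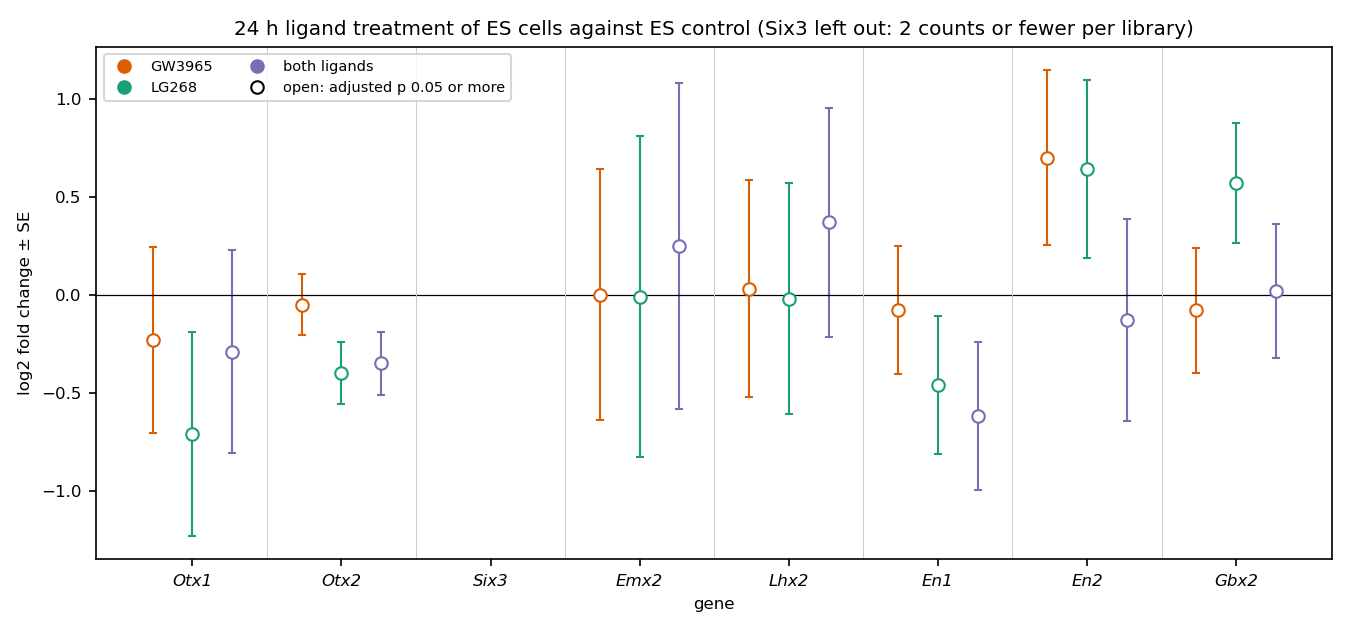
Log2 fold change ± SE against ES control after 24 h of GW3965, LG268 or both (2 libraries per group; Six3 is not drawn). All points are open because none passed an adjusted p of 0.05; Otx2 has the smallest errors, with -0.40 ± 0.16 under LG268.

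At day 16, cultures with GW3965 held less Otx1, Otx2 and En2 RNA than control cultures. Of the 8 members 3 fell and none rose, where 31.7% of all genes passed, 13% higher and 18.7% lower. The members' median was -0.78 against -0.03 for all genes on the log2 scale.

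Otx2 was at 11.1 and 8.87 CPM in control and at 2.69 and 1.65 CPM with GW3965, from 89 and 54 counts. The groups did not overlap, and the difference was -2.18 ± 0.27 (4.52-fold lower, adjusted p = 4.97e-06). En2 was at 2.1 and 1.21 CPM in control and at 0.333 and 0.245 CPM with GW3965, from 11 and 8 counts, the lowest of any group. It fell by 2.47 ± 0.464 (adjusted p = 0.000394). Both calls held in every alternative run, including each library left out. Otx1 was at 3 and 1.87 CPM in control and at 1.06 and 0.857 CPM with GW3965. It fell by 1.32 ± 0.4 (adjusted p = 0.0155), a call that ended without the first control library (0.165) or the second GW3965 library (0.103).

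The forebrain factors pointed down without passing. Emx2 went from 4.2 and 5.2 CPM to 2.69 and 2.94 CPM (-0.75 ± 0.34, adjusted p = 0.105), and Lhx2 from 3.42 and 2.45 CPM to 2.15 and 1.16 CPM (-0.81 ± 0.332, adjusted p = 0.0707). Both passed in a fit without filter (0.0223 and 0.0373). Six3 overlapped between the groups (-0.70 ± 0.535, adjusted p = 0.353). En1, the paralog of En2, was at 5.51 and 3.36 CPM in control and at 4.42 and 4.44 CPM with GW3965, with an interval of -0.47 to 0.51. Gbx2 was at 6.26 and 5.45 CPM in control and at 4.27 and 4.87 CPM with GW3965, groups that did not overlap, with an interval of -0.81 to 0.11.

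At day 17 the direction was the other way. Otx1, Otx2 and Lhx2 were higher with GW3965 than in the day 17 control, 3 of 8 members higher and none lower, where 35.2% of all genes passed, 17.2% higher and 18% lower. The members' median was 0.86 against 0.02 for all genes.

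Otx2 was at 5.21 and 4.02 CPM in control and at 10.2 and 17.7 CPM with GW3965, from 229 and 421 counts. The groups did not overlap, and the second GW3965 library was 1.73 times the first. That library was the higher of the pair for 7 of the 8 members, all but Emx2. The same held for the first library of the day 16 control, and the share over all genes was not taken. Otx2 rose by 1.58 ± 0.254 (2.99-fold, adjusted p = 7.6e-05), and this call held in every alternative run. Otx1 was at 2.26 and 1.69 CPM in control and at 3.62 and 6.06 CPM with GW3965, a rise of 1.28 ± 0.378 (adjusted p = 0.0125). Lhx2 was at 1.92 CPM in both control libraries and at 3.3 and 4.75 CPM with GW3965, a rise of 1.07 ± 0.343 (adjusted p = 0.0204). Without the second GW3965 library, the higher one, neither passed (adjusted p = 0.181 for Otx1 and 0.181 for Lhx2). Otx1 also failed without the second control library (0.0997), and Lhx2 without the first (0.0934) or the second (0.0807).

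En2 was at 1.88 and 0.875 CPM in control and at 2.05 and 3.24 CPM with GW3965 (0.90 ± 0.387, adjusted p = 0.0769), and passed without the first control library (0.0286). Six3 was at 1.11 and 0.991 CPM against 1.34 and 2.36 CPM (0.81 ± 0.541, adjusted p = 0.266). Emx2 (interval -0.52 to 0.85), En1 (-0.35 to 0.65) and Gbx2 (-0.45 to 0.47) stayed within their errors.

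**Figure D4:**
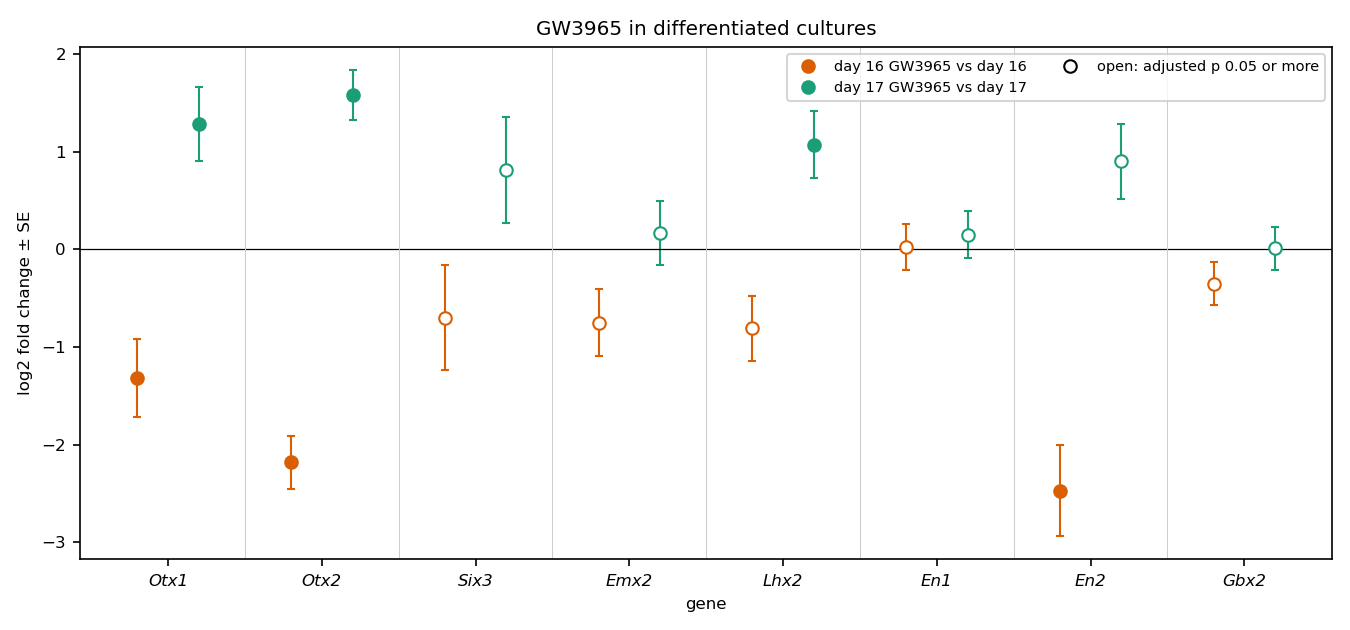
Log2 fold change ± SE of each gene with GW3965 against the control of the same day, at day 16 and at day 17 (2 libraries per group). Filled points passed an adjusted p of 0.05; Otx2 lies at -2.18 on day 16 and at 1.58 on day 17, whereas En1 (0.02 and 0.15) and Gbx2 (-0.35 and 0.01) did not pass on either day.

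The difference between the 2 responses was tested in the same fit, and 4 of 8 members passed, all lower at day 16, where 37% of all genes passed. It was -3.76 ± 0.371 for Otx2 (adjusted p = 2.32e-07), -3.37 ± 0.607 for En2 (0.000212), -2.60 ± 0.55 for Otx1 (0.000947) and -1.88 ± 0.478 for Lhx2 (0.00427). These 4 calls held in every alternative run. For En1 the difference was -0.13 ± 0.335 and for Gbx2 -0.36 ± 0.312, and neither passed. Day, time under ligand (from day 8 against 24 h, if the file names hold) and the listing of reads aligned more than once cannot be told apart here. Against the response of ES cells to GW3965, the day 17 response was higher for Otx2, by 1.63 ± 0.301 (adjusted p = 0.00075), 1 of 8 members where 18.2% of all genes passed. Without the first ES library with GW3965, Otx1 passed too.

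Genes of pluripotent and epiblast cells fell in the main at day 16 with GW3965 and were mixed at day 17. Pou5f1 was at 21.9 and 16.1 CPM in day 16 control and at 5.29 and 3.28 CPM with GW3965 (-2.13 ± 0.2), and Nanog went from 7.28 and 4.18 CPM to 0.666 and 0.826 CPM (-2.88 ± 0.299). Dnmt3b went from 46 and 37.7 CPM to 15.2 and 9.76 CPM (-1.74 ± 0.152). In all, 6 of 8 pluripotency markers fell and 1 rose, and 3 of 5 primed epiblast markers fell, where 31.7% of all genes passed. At day 17 Pou5f1 was at 6.32 and 5.95 CPM in control and at 13.1 and 7.15 CPM with GW3965 (0.71 ± 0.231), and Dnmt3b went from 10.1 and 6.01 CPM to 20.5 and 16.5 CPM (1.16 ± 0.191). Fgf5 fell there, from 7.68 and 5.07 CPM to 4.2 and 3.07 CPM, and of the 8 pluripotency markers 2 rose and 3 fell, their sum going from 204 and 188 CPM to 172 and 143 CPM. Of the 5 primed epiblast markers 2 rose and 1 fell, where 35.2% of all genes passed. From day 16 to day 17 without ligand, where Otx2 fell, 5 pluripotency markers rose and 2 fell. In that step 56.2% of all genes passed. ES control held 698 CPM of Pou5f1 and 109 CPM of Otx2 on average, with Otx1 and Lhx2 below 1 CPM. The part of residual pluripotent cells in the members' values was not tested.

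**Figure D5:**
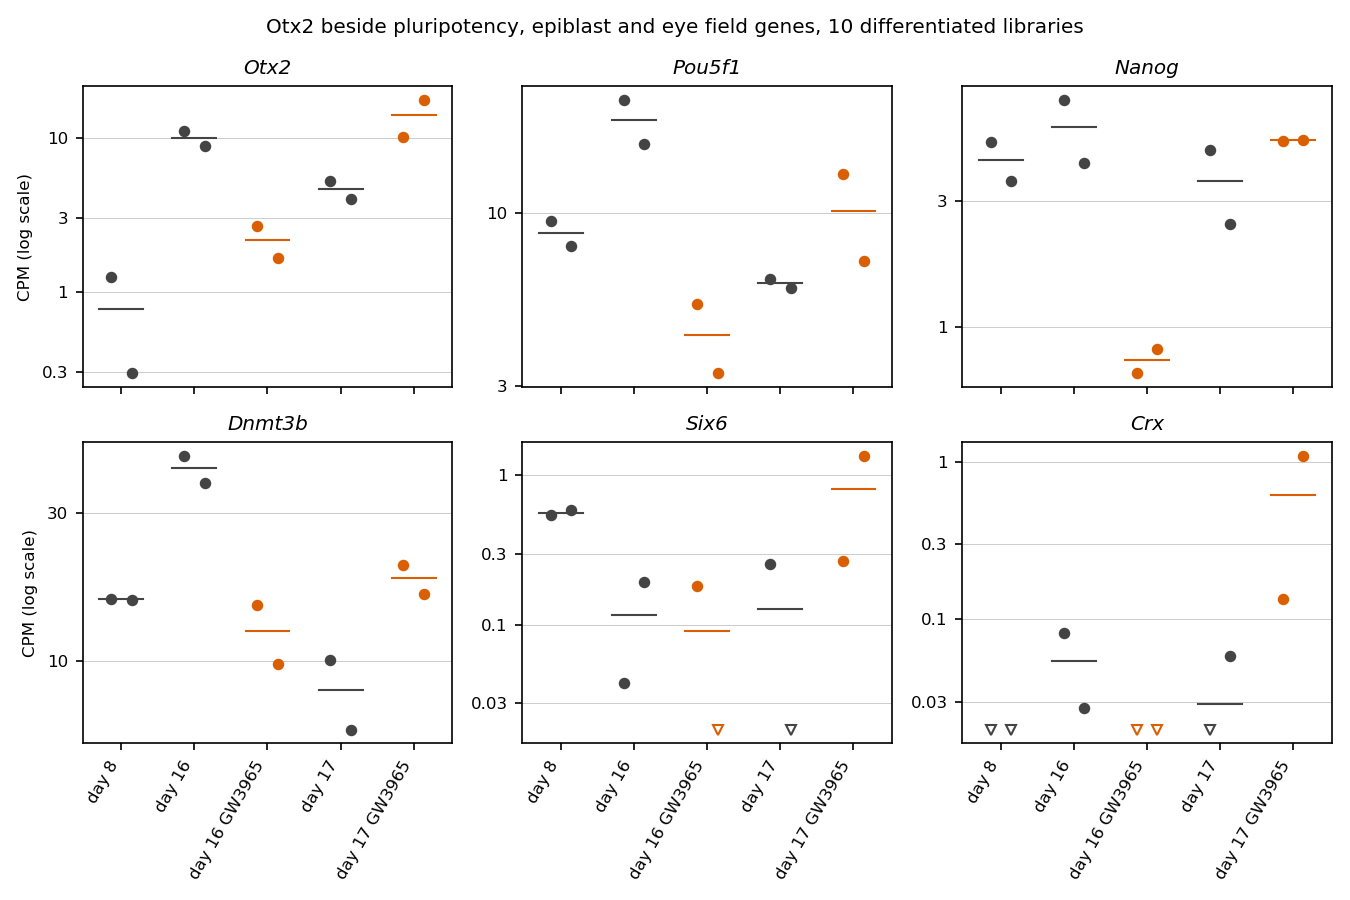
Levels (CPM, log scale, a separate axis per gene) of Otx2, of the pluripotency and epiblast genes Pou5f1, Nanog and Dnmt3b, and of the eye genes Six6 and Crx in the 10 differentiated libraries. Points are libraries, lines means of 2, and open triangles 0 counts. With GW3965 Otx2, Pou5f1 and Dnmt3b are lower at day 16 and higher at day 17. The whole list did not rise at day 17. There the 8 pluripotency markers summed to 204 and 188 CPM in control and 172 and 143 CPM with GW3965. Fgf5, an epiblast marker not drawn, fell there. Crx reaches 1.09 CPM in the second day 17 library with GW3965.

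Neural and glial markers also differed between the groups. Over all genes, 31.7% passed with GW3965 at day 16 and 35.2% at day 17. At day 16 all 6 neuron markers were higher with GW3965, the summed level going from 1550 and 1530 CPM to 2480 and 2300 CPM, whereas 4 of 6 neural progenitor markers were lower (751 and 743 CPM to 607 and 583 CPM). Sox1, an early neural progenitor factor, fell by 1.11 ± 0.24. Mesenchyme markers fell in 5 of 5 cases, from 9600 and 11000 CPM to 5630 and 4460 CPM, and astrocyte markers in 4 of 5, from 845 and 878 CPM to 496 and 356 CPM. At day 17, 4 of 6 progenitor markers were higher with GW3965 (488 and 431 CPM to 587 and 714 CPM), Hes5, a Notch target, by 2.24 ± 0.228. Neuron markers had 3 higher and 2 lower at day 17, with the sum going from 1170 and 1210 CPM to 1400 and 1520 CPM, so that it was higher with GW3965 on both days. Mesenchyme markers had 2 higher and 1 lower there (7880 and 8800 CPM to 8580 and 7710 CPM). At day 17, 3 astrocyte markers fell and 1 rose, and their sum went from 2640 and 2970 CPM to 2150 and 1640 CPM. Their part in the members' changes was not tested.

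The lists of other regional genes had these counts under GW3965, most of them near or below the share of all genes that passed (31.7% at day 16 and 35.2% at day 17). At day 16, 3 of 15 telencephalon factors were lower and 1 higher, 2 of 10 diencephalon factors lower (Irx3, -1.09 ± 0.232), 6 of 12 organizer genes lower and 2 higher, and 2 of 16 hindbrain and spinal genes lower and 1 higher. The higher one was Hoxb5 (32.8 to 51.2 CPM), and among the organizer genes Pax8 rose (7.64 to 12.5 CPM) and Il17rd, an inhibitor of fibroblast growth factor signalling, fell (66.7 to 36.2 CPM). At day 17, 1 of 15 telencephalon factors was higher, 2 of 10 diencephalon factors were higher and 1 lower, the organizer genes had 1 higher and 1 lower, and the hindbrain and spinal genes had 3 higher and 3 lower, among them Egr2, a factor of hindbrain segments and of Schwann cells, which went from 11.6 to 1.49 CPM.

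The antisense partners were read beside their genes. Six3os1 had 1 count in each ES control library and 49 and 73 at day 8 (adjusted p = 8.88e-06). In the day 17 libraries with GW3965 Six3os1 was at 2.95 and 7.78 CPM, again higher in the second, against 3.29 and 3.5 CPM in control (0.67 ± 0.419, adjusted p = 0.235). Emx2os had 2 and 0 counts in ES control and 22 and 17 at day 8 (adjusted p = 0.000274), and it rose further to day 16 (1.24 ± 0.445, adjusted p = 0.0213). With GW3965 at day 17 Emx2os went from 1.11 and 1.4 CPM to 3.21 and 2.61 CPM (1.22 ± 0.424, adjusted p = 0.0302), a change that Emx2 did not show (0.17 ± 0.328), and the difference between these genes was not tested. Otx2os1 had between 0 and 9 counts per library and was not tested.

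Likeness of pattern was measured as the root mean square difference of centred log2 group means over the 9 groups, among 17158 other genes. It describes these groups only. Nearest to Otx2 were Zbp1 (0.503; 15.2 CPM in ES control and 0.873 CPM at day 16) and Alox15 (0.532; 35.5 and 2.59 CPM), against a median of 2.6 over all genes. Nearest to Otx1 were Ptrf (0.326) and Gsdmc4 (0.329), to Six3 Arsb (0.169) and Ugt1a7c (0.188), to Emx2 Mest (0.258) and Ntn3 (0.29), and to Lhx2 Fzd3 (0.264) and St3gal1 (0.289). Nearest to En1 were Fam163a (0.152) and 1700120K04Rik (0.16), to En2 4930413G21Rik (0.31) and Smad6 (0.399), and to Gbx2 Mir10a (0.249) and Irx2 (0.262). Some of these genes were low, such as Mir10a (0 CPM in ES control and 0.213 CPM at day 16) and Ugt1a7c (0 and 0.694 CPM). For En2 the median over all genes was 1.02, and Smad6 spanned 1.44 on the log2 scale against 2.87 for En2. The members themselves were left out of the search.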

How the data were processed

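RNA was sequenced from 18 samples. The deposited files hold raw read counts per gene symbol as the authors made them. Per the submitters' processing notes, TopHat2 2.0.7, Cufflinks 2.0.2, HTSeq 0.6.0 and Cuffdiff 2.0.2 were used with mm10, and their roles, the annotation and the strand setting are not given in the sources used here. The 5 summary lines per file were left out of library sizes, among them reads with no gene (42.14 to 65.92% of the listed reads).

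Genes were kept by filterByExpr (17166), libraries were scaled by TMM, and edgeR 4.0.16 (in R 4.3.3, with limma 3.58.1) fitted 9 groups once by quasi-likelihood, giving 15 two-sided comparisons with Benjamini-Hochberg adjustment within each. The members and lists were chosen with earlier results of these data known. Of each other list up to 3 genes per comparison could be named, by largest change among those that passed with 5 CPM or more in the higher group and groups that did not overlap. Marker, antisense and related genes named beside them were partly chosen after their values were seen, and some genes (Pax6, Lhx9, Emx1, Six6, Crx and Foxa2) stand in more than 1 list.

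Alternatives were no filter, a stricter one, other size factors, DESeq2 1.42.0 (Wald test), voom, only the groups compared, a replicate block, each library left out and, chosen after seeing the data, a fit without the 4 day 17 libraries. On simulated counts for GW3965 at day 16 (16737 genes), 62, 82, 94 and 94% of changes of 1.5, 2, 4 and 8 fold were recovered, and 5.14% of calls were false. For LG268 in ES cells (16718 genes) 60, 82, 88 and 98% were recovered, and 7.34% of calls were false. Each gene was drawn at its mean level over the 18 libraries, without other group differences, and changes were planted in random genes. Recovery was thus not measured at the few counts that members such as Emx2 had in ES cells.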

Additional observations from a re-analysis of the deposited data

Results flagged for a closer look

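These 5 values were flagged because the response to GW3965 differed between settings by a test of the difference itself. For day 16 minus day 17, 4 of 8 members passed, where 37% of all genes did. For day 17 minus ES cells, 1 of 8 passed, where 18.2% of all genes did. The response at day 16 minus that at day 17 was -2.60 ± 0.55 for Otx1, -3.76 ± 0.371 for Otx2, -1.88 ± 0.478 for Lhx2 and -3.37 ± 0.607 for En2 on the log2 scale (adjusted p = 0.000947, 2.32e-07, 0.00427 and 0.000212, edgeR). All 4 were lower at day 16 than at day 17. For Otx2 the response at day 17 was also above that of ES cells, by 1.63 ± 0.301 (adjusted p = 0.00075).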

How the results depend on the processing

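Of 1485 values of single members under the alternatives, 1446 kept their side of the threshold, 18 lost a call and 21 gained one. As called values 0 turned round. Among the 1446, 113 changed sign without a call in either fit. Of 188 counts of members called, 175 stayed within 1.5 times. Without a filter 1 member, not 0, passed for LG268, for both ligands and for LG268 against GW3965 and both against GW3965, 5 passed for GW3965 at day 16 and 2 for the day 17 response against ES cells. With limma-voom 1 passed for both ligands. With only the groups compared 1 passed for LG268 and 1 for LG268 against GW3965. Leaving out 1 library gave 1 to 2 members for day 17 against day 16 (2 without the first day 16 control), 1 to 3 for GW3965 at day 17 (1 without the second control or the second GW3965 library) and 1 to 2 for the day 17 response against ES cells (2 without the first ES library with GW3965). Replicate numbers did not pair the libraries (36 pairs of groups, correlations of their deviations -0.096 to 0.0691), and the replicate block left every count as it was (7 at day 8, 6 from day 8 to day 16, 3 for GW3965 at day 16 and 3 at day 17), and Otx2 under GW3965 at day 16 stayed at -2.18 ± 0.28 with the replicate number as a block. Without the 4 day 17 libraries, 99 of 99 values kept their verdict. Over all genes, calls in ES cells moved by over 1.5 times: without a filter from 55 to 164 for GW3965, 146 to 336 for LG268, 103 to 266 for LG268 against GW3965, 722 to 1373 for both against LG268 and 23 to 617 for the interaction, which gave 12 with a stricter filter, 11 with DESeq2 size factors, 175 with the DESeq2 Wald test, 114 with limma-voom and 5 with only the groups compared. The DESeq2 Wald test gave 231 for LG268 and 180 for LG268 against GW3965. With only the groups compared there were 369 calls for GW3965, 843 for LG268, 892 for LG268 against GW3965 and 56 for both against LG268. In those fits both ligands went from 1939 to 427 against control and from 1831 to 111 against GW3965. Leaving out 1 library gave 28 to 44 calls for GW3965, 42 to 70 for LG268, 718 to 2844 for both, 29 to 35 for LG268 against GW3965, 103 to 2379 for both against LG268, 325 to 3077 for both against GW3965, 2 to 1461 for the interaction and, for GW3965 at day 16, 3589 to 4880 in place of 5446. With DESeq2 size factors the share of higher calls went from 38.8 to 50.6% for both against LG268 and from 34.5 to 50.4% for both against GW3965. The cause was not tested. Six3 at 0 to 2 counts in ES cells, and En2 and Otx1 at 4 to 11 counts in some cultures, are limited by depth.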

Other observations

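Relatives of the 8 genes had courses of their own. Six4, a relative of Six3 and a factor of muscle and sensory placodes, was at 40 CPM in ES control and fell to 8.61 CPM at day 8 (-2.21 ± 0.127, adjusted p = 2.11e-12, edgeR), while Six3 appeared. With GW3965 Six4 fell at day 16 (8.88 to 5.22 CPM, -0.76 ± 0.144, adjusted p = 0.000442) and rose at day 17 (8.46 to 13.1 CPM, 0.64 ± 0.143, adjusted p = 0.00156). Gbx1, the paralog of Gbx2, rose by 5.26 ± 0.575 to 3.4 CPM at day 8 (adjusted p = 5.3e-08) and fell by 1.29 ± 0.359 to day 16 (adjusted p = 0.00417).

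The eye genes Crx and Six6 were uneven between the libraries of 1 group. The 7 retina and pigment epithelium markers, Crx among them, summed to 19.9 and 19.2 CPM in the day 17 libraries with GW3965. Crx, a photoreceptor relative of Otx2, had 3 and 26 counts in the day 17 libraries with GW3965 and at most 2 in any other library, and was not tested. Six6, a relative of Six3 in the eye field, had 6 and 32 counts in those libraries and 6 and 0 in the day 17 control (2.45 ± 1.01, adjusted p = 0.0659). That second library was the higher of the pair for both genes, as for 7 of the 8 patterning factors. In the day 16 control the first library was likewise the higher for all patterning factors but Emx2.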
